A study of Mus musculus with 2 samples.

Results

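Transcripts of the hyaluronan matrix were examined in mouse embryonic fibroblasts (MEFs), with 9 genes followed out of 27579 measured. They were the hyaluronan synthases Has1, Has2 and Has3, the hyaluronidases Hyal1 and Hyal2, the receptor Cd44, the crosslinkers Tnfaip6 and Ptx3, and the proteoglycan Vcan. The members were taken by gene name, and every non-control probe that carried 1 of these names was kept, which gave 20 probes. The group was chosen by a reading of the measured KO over WT ratios of these same arrays, so the ratios below are a description and no test is given for them.

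Hyaluronan is a very long, unsulphated sugar chain that synthases at the plasma membrane extrude into the space around the cell, where it holds water and forms a pericellular coat. Tnfaip6 (the protein TSG-6) transfers the heavy chains of inter-alpha-inhibitor onto hyaluronan, and the multimeric pentraxin Ptx3 binds those heavy chains and ties the strands together. Versican, the product of Vcan, binds along the chain, and CD44 anchors the coat to the cell. Fibroblasts are known for such a matrix during development and wound repair, and the same proteins build the expanded matrix of the ovulating cumulus.

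Total RNA came from untreated embryonic fibroblasts of C57BL/6J mice, either LATS2-/- (KO) or LATS2+/+ (WT), cultured per the study's methods in DMEM with serum. Lats2 is a kinase of the Hippo growth-control pathway, and the study asked which transcripts depend on it. The RNAs were hybridised in pairs to Agilent whole mouse genome arrays, with KO in Cy5 and WT in Cy3 on 1 array and the dyes exchanged on the other. The labels name no separate animals, embryos or cultures, the genotype field is spelled LAT2, and the sources used here do not say which sequence the KO allele lacks, so the 2 arrays were taken as 1 replicate and the spread between them measures dye and hybridisation error only.

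Of 41174 probes, 40875 had a value on both arrays, and no spot was saturated. Median signals ran from 58.2 to 98.5 units over median backgrounds of 30 to 36. On the log2 scale a probe varied between arrays with an SD of 0.133. The targeted gene went against its label: of 4 Lats2 probes, 3 had positive log2 ratios of KO over WT label (0.56, 0.56 and 0.63), and the other was at -0.35. The 3 positive probes lie close together on chromosome 14, from 56644080 to 56645305, and the spans of the brightest and the next overlap. They are therefore not separate views of the transcript. The probe at -0.35 starts at 56676512. Whether these probes lie in the deleted part is not known here, so they may check nothing. The study also examined the protein in its KO fibroblasts by western blot, which is not analysed here. The RNAs are called by their labels throughout, and every direction below rests on those labels. Of 10 fibroblast markers 9 were measured and 8 of these were well above background in both RNAs, whereas none of the 4 endothelial markers was so on both arrays. Markers of other cells were also read in both RNAs: 3 of 4 for smooth muscle, 2 of 3 for cartilage and 2 of 3 for neural cells. The counts were 1 of 5 for epithelium, 1 of 4 for blood cells and 0 of 3 for mesothelium.

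A probe was called where both arrays gave a log2 ratio, RNA labelled KO over RNA labelled WT, of 1 or more (higher) or of -1 or less (lower), and where the scanner software flagged it well above background on both arrays in the brighter RNA. By this rule 1 of the 9 members was higher (Ptx3), 1 was lower (Tnfaip6) and 7 were not called. Among all 15877 genes above background in at least 1 RNA, 2.95% were called higher and 2.61% lower. Over probes, 2 of the 20 were called higher and 1 lower, and 14 of the 20 were above background in at least 1 RNA. The shares among all 24186 probes above background were 2.48% and 2.08%. In 7 of the 9 members the brightest probe passed the background flag in at least 1 RNA, and in 6 of them in both. Has1 and Has3 did not reach it, so for these only background-level signal was read. The median log2 ratio over the 9 members was -0.09, or 0.04 over the 7 above background, beside 0.00 over all genes. Where a probe was above background in both RNAs, its ratio had the same sign on both arrays in 12 of 12 cases, with a median SD between arrays of 0.0642 and a highest of 0.156.

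**Figure D1:**
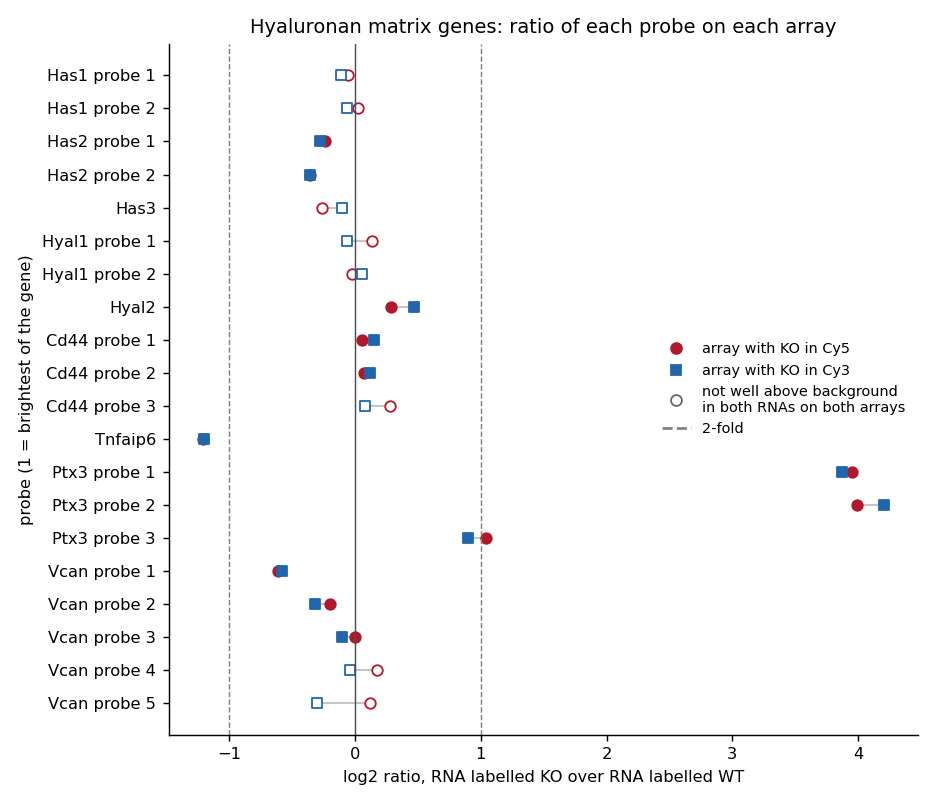
Log2 ratio of the RNA labelled KO over the RNA labelled WT (x axis) for each of the 20 probes (y axis, brightest first within a gene), with 1 point for each array and dashed lines at 2-fold. Open symbols mark probes not well above background in both RNAs on both arrays. The first and second Ptx3 probes lie near 4, the dimmest Ptx3 probe near 1, Tnfaip6 below -1 and all other probes between the dashed lines.

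Because the called members moved in opposite directions, the 250 bases upstream of the start of each are shown, from RefSeq on GRCm38.p6. Capitals mark matches to the short motifs described after the sequences. Ptx3 lies at chr3:66219637-66219886 on the plus strand and Tnfaip6 at chr2:52037863-52038112 on the plus strand.
Ptx3: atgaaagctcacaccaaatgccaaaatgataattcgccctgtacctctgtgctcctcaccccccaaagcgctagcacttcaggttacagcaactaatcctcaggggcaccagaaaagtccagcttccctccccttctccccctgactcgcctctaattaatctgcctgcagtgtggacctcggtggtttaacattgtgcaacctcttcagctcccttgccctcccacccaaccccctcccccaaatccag
Tnfaip6: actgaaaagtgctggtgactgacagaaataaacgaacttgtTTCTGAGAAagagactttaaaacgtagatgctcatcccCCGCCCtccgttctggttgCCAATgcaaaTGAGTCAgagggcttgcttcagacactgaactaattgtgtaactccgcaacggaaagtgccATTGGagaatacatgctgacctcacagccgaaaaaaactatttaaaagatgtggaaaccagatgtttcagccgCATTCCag

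Both strands of these windows were searched for 10 motifs, and 7 of the 9 members were in the promoter table. The Tnfaip6 window held an AP-1 site (TGANTCA, read as TGAGTCA, at 142 bases upstream), which is present in 6.75% of the 32851 promoters in the table. It also held a TEAD site (GGAATG, 12.6% of promoters) that starts 8 bases upstream on the opposite strand. TEAD factors are the DNA-binding partners of YAP and TAZ, which Lats kinases restrain. A STAT site (TTCNNNGAA, 7.02%), a GC box (GGGCGG, 32.7%) and a pair of CCAAT boxes (CCAAT, 33.9%) were the other matches, and no motif overlapped another there. The Ptx3 window held none of the 10, which also included an NF-kB site (GGANNTTCC, 3.59%), a CRE (TGACGTCA, 1.55%), its short form (TGACG, 17.8%, part of the CRE), a TATA box (TATAAA, 12.4%) and an E-box (CAGGTG, 17.2%). That says only that these letters are not in this window. Among the other members Hyal2 held a TEAD site and a GC box, and Has1 a CRE at 83 bases upstream and a CCAAT box. Hyal1 and Vcan held GC and CCAAT boxes, and Cd44 held none of the motifs. The windows held 54.0% G and C in Ptx3 and 44.4% in Tnfaip6, around a median of 52.4% over all promoters. A match is a description of the letters and not a site of binding.

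Ptx3, the long pentraxin that crosslinks heavy-chain-bearing hyaluronan and is also an acute-phase protein, was the member with the widest difference. Its brightest probe lies on chromosome 3 at 66313207 to 66313266 (NCBI36). The normalised level was 5388 in the RNA labelled KO and 347.7 in the RNA labelled WT on the array with KO in Cy5, and 5218 and 357.2 after the dyes were exchanged. Each level in the RNA labelled KO stood far above each in the RNA labelled WT, whichever dye the RNA carried. The log2 ratios were 3.95 and 3.87, with a mean of 3.91 and an SD between arrays of 0.0601, or 15.1-fold. Among 14723 genes above background in both RNAs this ratio ranked 8 from the top.

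A second Ptx3 probe, at 66313252 to 66313311, shares 15 bases of its span with the first and is therefore not a separate view of the transcript. It read 4169 and 3973 in the RNA labelled KO against 262.7 and 214.9 in the RNA labelled WT. Its mean log2 ratio was 4.10 (3.99 and 4.21), or 17.1-fold, and it was called as well. The remaining probe, assigned to Ptx3 through the cDNA AK162281, gave a far smaller difference. It maps at 66308217 to 66308241, 25 bases of genome, with its start 4990 bases from that of the first and its coordinates in the order opposite to the other Ptx3 probes. Over the array, 99.6% of 19488 probes had coordinates in the order of their gene's strand. This dimmest probe read 266.6 and 239.7 in the RNA labelled KO against 129.1 and 128.4 in the RNA labelled WT. Its log2 ratios were 1.05 and 0.90, so it missed the call on 1 array, and its mean of 0.97 lay 2.94 below that of the brightest probe. With the mean over all its probes in place of the brightest, Ptx3 had a log2 ratio of 2.99.

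Tnfaip6, the protein that moves heavy chains onto hyaluronan, was the member called lower. It was read by 1 probe, on chromosome 2 at 51878493 to 51878552. Levels were 192.6 and 227.5 in the RNA labelled KO and 445 and 521.9 in the RNA labelled WT. The ranges did not overlap, although the level rose from the first array to the second in both RNAs. The log2 ratios were -1.21 and -1.20 (SD between arrays 0.0074), which put the RNA labelled KO at 43.4% of the RNA labelled WT, and its rank was 289 from the bottom of the same 14723 genes. When each array was centred on its median instead of loess-normalised, the ratios were -0.68 and -1.81 and the call was lost, while the mean was -1.24.

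**Figure D2:**
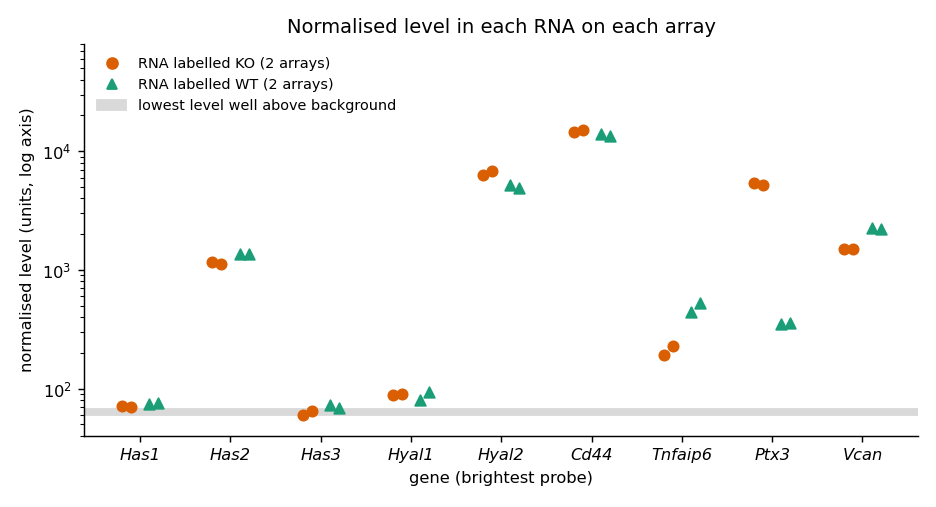
Normalised level of the brightest probe of each member (log y axis, arbitrary units) in the RNA labelled KO (circles) and the RNA labelled WT (triangles), 1 point for each array. The grey band spans the lowest levels, 59.8 to 67.3, read from a probe well above background. Levels can be compared between the RNAs for a gene and not between genes; the RNAs separate widely for Ptx3, by less for Tnfaip6, Vcan and Hyal2, and Has1 and Has3 sit near the band.

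Vcan, the large chondroitin sulphate proteoglycan that binds hyaluronan, was represented by 5 probes on chromosome 13, and they did not give a single ratio. The brightest, at 90131463 to 90131522, read 1491 and 1488 in the RNA labelled KO against 2274 and 2222 in the RNA labelled WT. The ranges did not overlap, and the log2 ratio was -0.59 (-0.61 and -0.58), or 66.3%, short of the 2-fold threshold. A dimmer probe whose span covers 5855 bases of genome, from 90199865 to 90205719, was at -0.26 (-0.20 and -0.31). The probe at 90208462 to 90208521, named through the cDNA AK083723, was at -0.05. The other probes, at 90184671 and 90185804, were well above background on at most 1 array in either RNA, with ratios of 0.07 and -0.09. The mean over all 5 was -0.18, and over the probes above background it was -0.30. Versican transcripts differ by splicing of their chondroitin sulphate exons, and which form each probe reads was not analysed here.

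Of the synthases, which build the chain from UDP-sugars, only Has2 was read above background. Its brighter probe, on chromosome 15 at 56495884 to 56495943, read 1160 and 1124 in the RNA labelled KO and 1364 and 1365 in the RNA labelled WT. The ratio was -0.26 (-0.23 and -0.28), which is 83.7%, and the second probe, at 56522048 to 56522107, gave -0.36, or 78.1%. Both probes pointed the same way on both arrays, by more than the between-array SD of 0.133 and well short of 2-fold. Has1, on chromosome 17, had probes at -0.09 and -0.02, of which the first passed the background flag for the RNA labelled WT on 1 array only. Has3, on chromosome 8, was at -0.18 with levels of 60.1 and 64.2 against 72.1 and 69.1, which passed the background flag in neither RNA.

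Among the enzymes that cut the chain, Hyal2, a hyaluronidase anchored at the cell surface, had a ratio of 0.38 (0.29 and 0.47), or 130%. Its levels of 6341 and 6828 in the RNA labelled KO did not overlap with the 5193 and 4930 in the RNA labelled WT. Hyal1, the lysosomal hyaluronidase, was dim. Its brighter probe was at 0.04, with 0.14 and -0.06 on the single arrays, and a probe sharing 50 bases of its span gave 0.02. Both genes lie in a cluster on chromosome 9 with Hyal3, and the neighbours there did not share 1 ratio: Rassf1 was at 0.36, Tusc2 at -0.04, Nat6 at -0.27 and Hyal3 at 0.07, and none was called.

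Cd44, the main hyaluronan receptor of fibroblasts, was nearly level. Its brightest probe, on chromosome 2 at 102613589 to 102613648, read 14394 and 14935 in the RNA labelled KO and 13830 and 13421 in the RNA labelled WT, a ratio of 0.11 (0.06 and 0.15). These ranges did not overlap either, nor did those of Has2, so a lack of overlap sets no gene apart here. A probe spotted repeatedly, at 102612349 to 102612408, gave 0.10, with an SD over spots of 0.0166 from 9 spots on 1 array and of 0.0273 from 10 spots on the other. Both ratios were below the SD of 0.133 of a single probe and just above the SD of 0.0943 of a mean of both arrays, and all 3 Cd44 probes were above 0 on both arrays. The remaining Cd44 probe, at 102635102 to 102635161, did not pass the background flag for the RNA labelled WT. Its ratio was 0.18 (0.28 and 0.08), or 1.13-fold, taken against that dim signal.

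**Figure D3:**
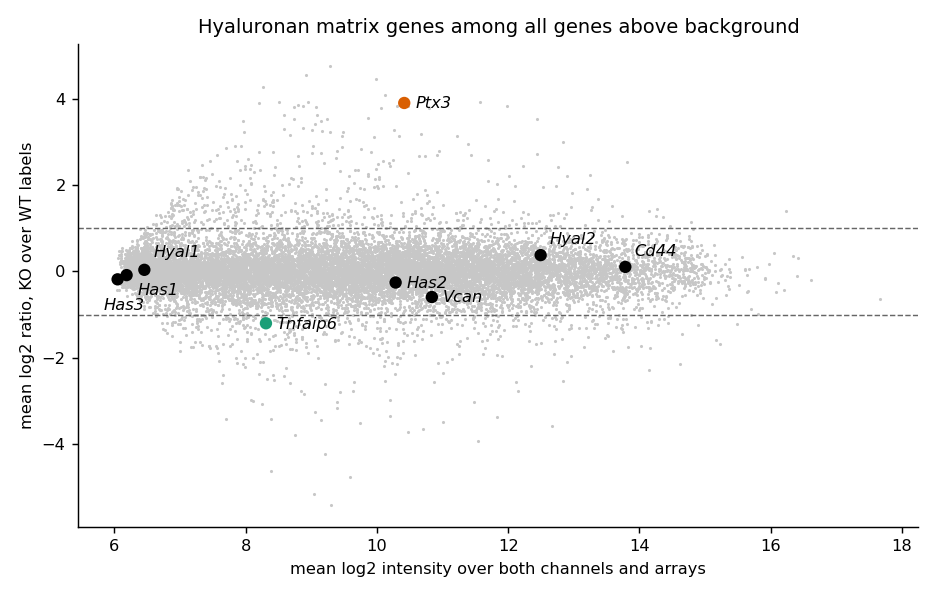
Mean log2 ratio of the RNA labelled KO over the RNA labelled WT (y axis) against mean log2 intensity over channels and arrays (x axis) for genes above background in at least 1 RNA (grey, brightest probe each) and the 9 members (large points, Has1 and Has3 added at background level). Dashed lines mark 2-fold; Ptx3 lies among the highest ratios at its intensity, Tnfaip6 just below the lower line, and the other 7 members between the lines.

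The genes that supply, cut, bind and cover hyaluronan were then read from 8 lists of 97 other genes, of which 96 were measured and 66 were above background in at least 1 RNA. The lists, too, were written with earlier results of these data known. Of the 66, 8 were called higher, 3 lower and 55 were not called, and the median log2 ratio of those above background was 0.03. The shares over all genes above background were the 2.95% higher and 2.61% lower given before, and since the lists were chosen with results known, nothing is read from the difference.

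Among 13 genes that make hyaluronan precursors, all were above background and 2 were called higher. Nagk, the kinase that salvages N-acetylglucosamine, was at 1.35, and the probe named Pgm2 (Pgm1 in RefSeq), a phosphoglucomutase, was at 1.34. Nagk read 1992 and 2324 in the RNA labelled KO against 892.4 and 797.1, and Pgm2 2706 and 2505 against 1030 and 1027, with no overlap in either gene. Hk2, a hexokinase, was at 0.96 with 1 array below the threshold (1.12 and 0.79). Ugdh, which makes the UDP-glucuronate used by the synthases, was at -0.08, and Ugp2, which makes UDP-glucose ahead of it, at -0.60.

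Of 10 genes for breakdown outside the members, 6 were above background and 1 was called. The transcript named 9930013L23Rik, which is an older name of Cemip, a hyaluronan-binding protein needed for hyaluronan breakdown by fibroblasts, was higher at 2.69 (2.73 and 2.65), or 6.46-fold. Its levels were 3933 and 4201 in the RNA labelled KO against 592.4 and 669 in the RNA labelled WT. Further probes of the same name gave 2.67 and 1.56. The last, the single one with a RefSeq match to Cemip, failed the background flag for the RNA labelled WT. It was at 0.23 (0.14 and 0.31), or 1.17-fold, taken against that dim signal. Hexa, a lysosomal hexosaminidase gene, was at 0.84, Gusb, which removes glucuronate, at -0.13, and the surface protein gene Tmem2 at -0.12.

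Of 15 receptor and binding genes 12 were above background. Ezr (named Vil2 on the array), which links CD44 to actin, was called higher at 1.12, with 2460 and 2514 against 1085 and 1208. Its relatives Msn and Rdx were at -0.03 and -0.40. Tlr2, an innate receptor reported to sense hyaluronan fragments, was called lower at -1.27, with 387.6 and 386.7 in the RNA labelled KO against 928.9 and 935.7 in the RNA labelled WT, or 41.5%. Tlr4 was at -0.62 and Hmmr, a hyaluronan-binding protein that is also a mitotic spindle component, at -0.70; neither was called.

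Of 7 hyalectan and link protein genes, the relatives of versican and the proteins that fix them to the chain, 2 were above background and none was called. Acan was at 0.01 and Hapln3 at 0.11. Hapln1, whose probe starts 49.2 kb from that of Vcan, was at 0.29 but not well above background. The heavy chains that Tnfaip6 transfers are made mainly in liver. Of 6 listed genes of the inter-alpha-inhibitor family, only Itih3 (0.20) and Itih4 (0.03) were above background in these cells, with no call. Both were dim, at 118.5 and 108.7 for Itih3 and 122.2 and 91.2 for Itih4 in the RNA labelled KO. Which of the listed genes give a chain that Tnfaip6 transfers was not examined.

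The list of versican partners, processing enzymes and proteases held 17 genes, with 16 measured and 13 above background, of which 2 were called higher and 1 lower. The higher were the proteases Adamts1 and Adamts5, which both cleave versican. Adamts1 read 32848 and 36948 in the RNA labelled KO against 5859 and 6129 in the RNA labelled WT, a ratio of 2.54 (2.49 and 2.59), or 5.81-fold, and its second probe gave 2.32. Adamts5 read 10961 and 11518 against 1963 and 2135, a ratio of 2.46 (2.48 and 2.43), or 5.49-fold, and its second probe gave 2.17. The levels of these proteases did not overlap between the RNAs, which by itself sets no gene apart, as given for Cd44. In the same RNA the brightest Vcan probe was at 66.3%. The mean log2 ratio over all 5 Vcan probes was -0.18, and over those above background -0.30. Versican protein was not measured, and a link between these values was not tested. Of the other proteases of this family in the list, Adamts4 was at -1.03 (-0.91 and -1.15, missing the threshold on 1 array) and Adamts9 at -0.37, while Adamts15 and Adamts20 were above background in neither RNA. Csgalnact1 (4732435N03Rik on the array), which starts chondroitin sulphate chains, was called lower at -1.57, or 33.6%. Chsy1, which extends them, was at -0.64, and Fbn1, a microfibril protein that binds versican, at -1.19 with -0.72 and -1.66 on the single arrays.

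Among 10 other pentraxin and Ptx3 ligand genes, 4 were above background. Nptxr, a neuronal pentraxin receptor, was called lower at -1.62, with 171.2 and 169.5 against 522.2 and 524.6. Its dimmer probe failed the background flag for the RNA labelled KO and was at -0.57 (-0.61 and -0.53), or 1.48-fold lower. The short pentraxins Crp and Apcs were at 0.01 and -0.05 and not above background on both arrays in either RNA, and Fgf2, a growth factor bound by Ptx3, was at -0.06. The pentraxins Nptx1 and Nptx2 passed the background flag in neither RNA. Crp, Apcs, Nptx1 and Nptx2 could thus not be called, and nothing is read from Ptx3 being the single pentraxin called higher.

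Of 19 inducers and genes of the cumulus and inflammatory matrix programme, 14 were above background and 2 were called, both higher. Il6, an inflammatory cytokine, was at 1.45 with 248.7 and 207.3 against 91.2 and 75.8, and Ptgs2, the inducible cyclooxygenase, was 2.14-fold higher, or 2.19-fold by a second probe. Il1r1 was at 0.88 (1.06 and 0.70) and Tnfrsf1a at 0.47, whereas their ligands Il1b and Tnf were not well above background. The NF-kB genes Nfkb1, Rela and Nfkbia were at 0.20, 0.14 and -0.16.

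**Figure D4:**
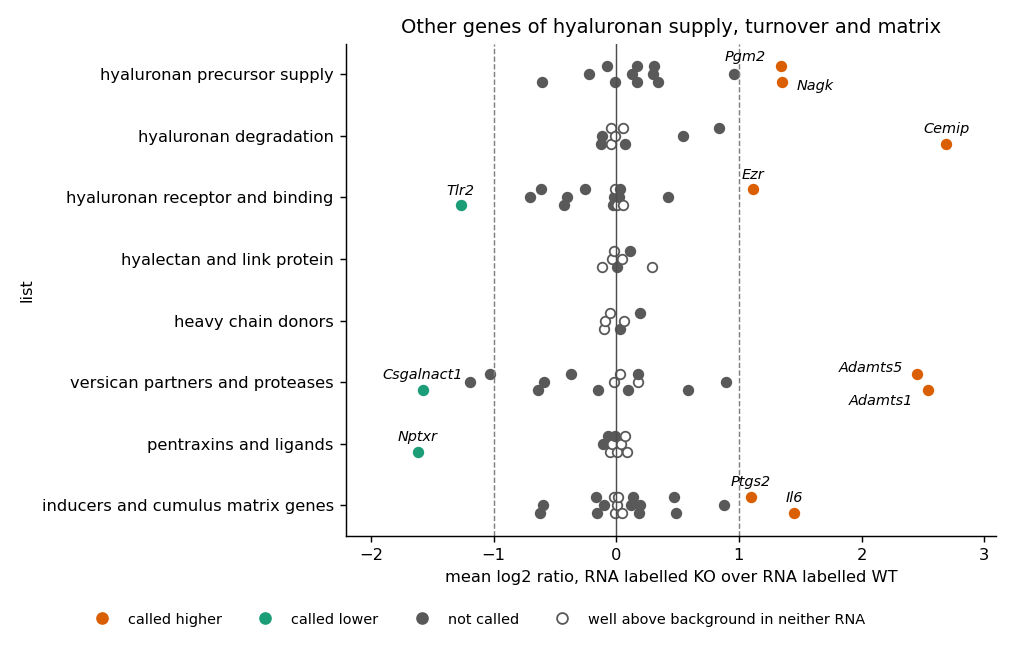
Mean log2 ratio of the RNA labelled KO over the RNA labelled WT (x axis) of every measured gene in the 8 lists (y axis), 1 point for each gene's brightest probe, with called genes coloured and named and dashed lines at 2-fold. Cemip, Adamts1 and Adamts5 lie beyond 2, Nptxr and Csgalnact1 below -1.5, and most genes near 0.

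Along the genome, none of the nearest neighbours of Ptx3 and Tnfaip6 on the array was called. Next to Ptx3, Veph1 was at 0.05 and not above background, and Shox2, 750.2 kb away, was at -0.23. Next to Tnfaip6, Nmi was at -1.04 (-0.95 and -1.13, not called) with probes 107.9 kb apart, and Rif1 at -0.28. Among the neighbours of all members, only Mtbp, 1040 kb from Has2, was called, at -1.23. By the distance between ratios on the 2 arrays, the genes most like Ptx3 among 14722 were Sulf1 (3.93), Speer3 (3.86) and Col4a6 (3.84). Those most like Tnfaip6 were Sc4mol (-1.21), 1700060H10Rik (-1.19) and Sgk (-1.22). With 2 values for each gene, this likeness says no more than that the ratios are of one size.

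Markers of other cells moved with these results in part. In bulk RNA, fewer cells of a type and less RNA per cell cannot be told apart. Of 5 epithelial markers, 4 were well above background on no array of either RNA, and the fifth, the keratin Krt19, was called higher at 2.12, so the summed level was 638.2 and 576.6 in the RNA labelled KO against 354.7 and 334.3. Of 3 mesothelial markers, Upk3b and Wt1 were above background in neither RNA, while Msln was above it in the RNA labelled KO only. Msln was at 0.86 (0.75 and 0.98), or 1.82-fold, taken against its dim signal in the RNA labelled WT. The mesothelial sums were 265.9 and 264.6 against 215.1 and 187.9. The smooth muscle sum was 47809 and 46509 against 36282 and 34275, and none of the 4 markers was called. Acta2 was at 0.79, Tagln at 0.13 (-0.06 and 0.32) and Myh11 lower at -0.46, with Des not above background. The 9 fibroblast markers had a median of -0.41, from -0.89 for Vim to 0.16 for Lum, and their sum was 103943 and 94978 against 127311 and 134365. The Vim probe was dim and passed the background flag in the RNA labelled KO on 1 array only. The part of these shifts in the ratios of Ptx3, Tnfaip6, Vcan and Has2 was not tested.

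The members' ratios were recomputed under other background corrections and normalisations. For Ptx3 the ratio of the brightest probe lay between 3.91 and 4.23 under every background correction and dye normalisation plotted, as the mean of both arrays. For Tnfaip6 it ran from -1.55 to -1.20. The ratio of the dimmest Ptx3 probe reached 1.61 with the scanner software's own ratio, against 0.97 here, 1.31 with a smaller offset added to the intensities (10 in place of 50) and 1.13 with no background subtraction.

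**Figure D5:**
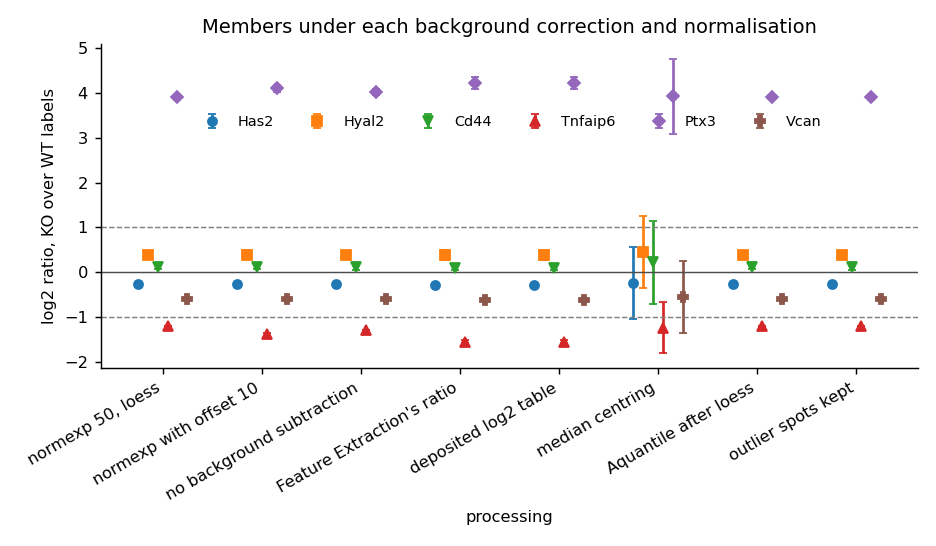
Log2 ratio of the RNA labelled KO over the RNA labelled WT (y axis) of the brightest probe of 6 members under each processing (x axis). Points are means of both arrays, bars run from the lower to the higher array, and dashed lines mark 2-fold; Ptx3 stays near 4 throughout, and with median centring the arrays spread apart for every gene, with Tnfaip6 at -0.68 and -1.81.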

How the data were processed

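The authors scanned both 2-colour arrays with Agilent Feature Extraction 10.5.1.1, per the labels, and deposited the mean signal and median background of each spot as intensity, together with the software's log10 ratio. They also deposited a table of log2 ratios, which followed the processed signals as KO over WT (Pearson's r 0.995 across probes on each array, which are not replicates; column medians -0.02 and 0.04). Its exact centring is not given in the sources used here. Coordinates are those of the files (NCBI36).

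Here limma 3.58.1 (R 4.3.3) corrected the background of the intensities by normexp with an offset of 50 and normalised each array by loess. Spots of a probe were averaged after 390 and 378 outlier spots were left out, and the ratios of the array with KO in Cy3 were sign-reversed. Levels are channel values after loess and Aquantile, and include the offset. The brightest probe stood for a gene. Calls needed a log2 ratio of 1 on each array, the fold threshold of the methods. A probe in several spots had to be flagged well above background in at least a share of 0.5 of them. For a probe that failed the background flag in the dimmer RNA, the fold was taken against its own dim signal.

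The members and all gene lists were chosen with earlier results of these data known. Named genes were every member probe, every called list gene, examples from each list (1 listed gene is not reported here by name), the 2 nearest genes on each side of a member and the 3 genes nearest in ratio to each called member. Gene names are those of the array, and 24375 probes had an accession in RefSeq. On simulated data the calling step was tested with known changes. Tables were handled with Python 3.11.15 and pandas 2.3.3. Alternatives were other offsets, no background subtraction, Feature Extraction's ratio, the deposited table, median centring, Aquantile, outlier spots kept, each array alone, other rules for several probes, other call rules, limma and the methods' t-test.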

Additional observations from a re-analysis of the deposited data

How the results depend on the processing

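Of 307 recomputed values under 17 settings, 252 differed from the reported value by less than the spread between arrays (counts, by less than 1.5 times) and 55 by more. No called value changed direction, and 7 uncalled values near 0 changed sign. Feature Extraction's ratio gave 1280 probes higher and 1220 lower, and the deposited log2 values gave 1284 and 1224, against 599 and 503 here; an offset of 10 alone gave 859 and 739. The software's ratio and the deposited values differ from the reported processing in several steps, and the cause was not tested. Median centring left 321 higher and 169 lower, 0 members lower, and 4 list genes higher and 1 lower, and the cause was not tested. The list genes called lower numbered 5 with Feature Extraction's ratio, the deposited table, the array with KO in Cy3 alone and the mean of both arrays, against 3. The methods' t-test and limma take the 2 arrays as replicates, so their p-values measure dye and hybridisation error only. The members and lists were also chosen with these ratios known, so their counts by these tests are not given. Over all probes the t-test called 524 higher and 443 lower at its unadjusted threshold, and 0 in each direction after Benjamini-Hochberg.

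Among single values, the mean over all probes gave 2.99 for Ptx3 and -0.18 for Vcan, or -0.30 for Vcan over probes above background. Has3 was at -1.64 and the dimmest Cd44 probe at 1.61 with Feature Extraction's ratio, and the median of the members ran from -0.20 to -0.01. Each ratio compares the paired RNAs within 1 array. Because the 2 arrays were taken as 1 pair of RNAs and each orientation has 1 array, variation between animals or cultures could not be estimated. Signal over background limits Has1, Has3, Hyal1 and 2 of the 5 Vcan probes, and the number of arrays limits the precision of every value.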
